A study of Homo sapiens with 8 samples.

Results

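MDA-MB-231 cells, an established human triple-negative breast cancer line, were kept for 2 days on a soft or on a stiff substrate and profiled on Affymetrix arrays, with 4 biological replicates (letters A to D) for each substrate. The labels name no genotype change or added agent for either group, one serum-containing medium for all 8 cultures, and no stiffness value for either substrate. How the replicate cultures were kept apart is not stated, and the p-values reflect only the spread among the arrays at hand. The present results describe 56 genes of DNA replication: those that license origins, build the fork and supply deoxynucleotides. The 56 were taken by symbol, each through its brightest probe set (by the mean of all 8 arrays) among those that name that gene alone, and all 56 were found among the 19775 genes so measured. Levels are log2 values, and every difference is soft minus stiff on the log2 scale.

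The marker genes of the line were measured as a check of the labels. VIM, CD44, AXL, CAV1, ANXA1 and MSN lay between 12.75 and 14.61 on all arrays, far above the background level of 5.95, which is the 95th percentile of 14 genes taken as silent in breast cells. CDH1 and PGR lay below that level in both groups, while ESR1, ERBB2, EPCAM and GATA3 did not. Of 13 fibroblast, macrophage and endothelial markers 5 were above it, and their levels summed on the linear scale ranged over 345.7 to 418.5 on soft and 367.5 to 403.4 on stiff for fibroblast, 146.2 to 161.3 and 127.1 to 161.0 for macrophage, and 326.3 to 368.2 and 247.6 to 283.1 for endothelial genes. The last of these followed PECAM1, which rose by 0.49 on soft (SE 0.0694, adjusted p = 0.00211), while VWF stayed within 5.84 to 6.04 and CDH5 within 4.06 to 4.31. AXL fell by 0.23 (SE 0.0575, adjusted p = 0.0318). Their part in the replication results was not tested. Correlations between arrays ran from 0.9932 to 0.9982.

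DNA replication is prepared in G1, when the origin recognition complex, CDC6 and CDT1 load the MCM2-7 helicase onto origins, a step called licensing. At the start of S phase CDC45 and the GINS complex join MCM2-7 to form the working helicase, and polymerases, the PCNA clamp with its RFC loader and the RPA single-strand binding protein follow at the fork. E2F transcription factors, held in check by the RB family, drive many of these genes as cells pass from G1 into S.

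On the soft substrate 27 of the 56 genes were lower, none was higher and 29 did not pass the threshold, an adjusted p under 0.05 in the limma fit of all 54613 probe sets. That is 48.2% of them, where 5.93% of all genes were lower and 4.39% higher; among the 12246 genes above background 9.17% were lower and 6.68% higher. The mean was below that on stiff for 54 of the 56, with ORC3 and RFC1 the exceptions, against 47.7% of all genes. Their median difference was -0.27, a 1.20-fold higher level on stiff, beside 0.0075 for all genes and -0.015 for genes above background. In 34 of the 56 every soft array lay below every stiff array, as it did for 11.2% of all genes and 17.1% of those above background, and in none was it the reverse (8.78% of all genes). In arrays of whole cultures, fewer cells in S phase and less RNA per cell cannot be told apart. None was higher at an unadjusted p under 0.05 of the limma fit either, a cut at which the share of all genes was not counted. The count of lower genes was 17 without stiff A (3.84% of all genes), 13 without stiff B (2.77%) and 15 without soft B (3.69%).

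**Figure D1:**
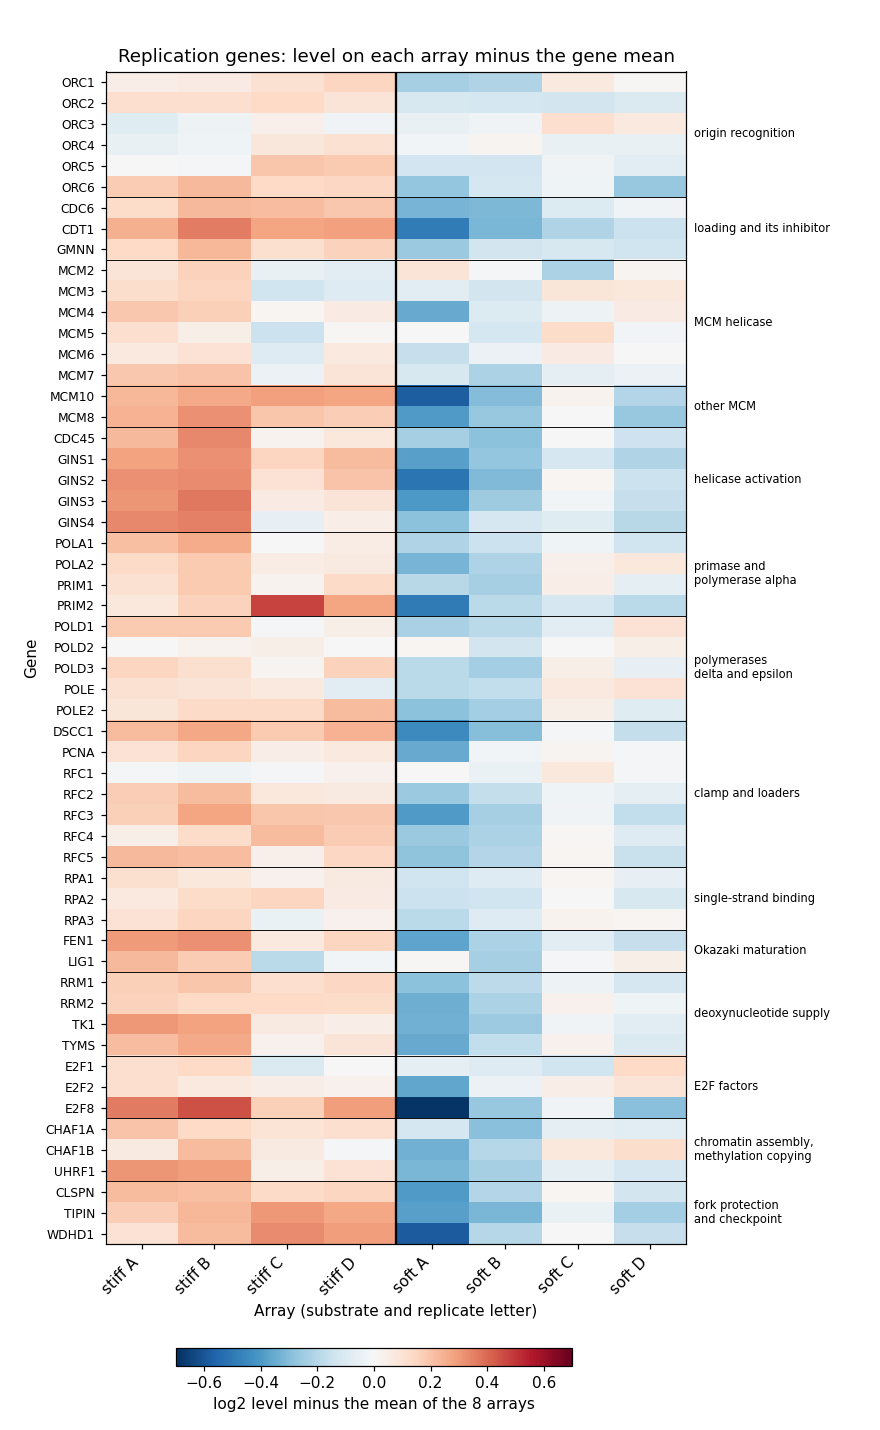
Level of each of the 56 genes (rows, by role) on each array (columns), as the log2 level minus the mean of that gene over the 8 arrays, on a scale from blue (low) to red (high). Most rows are red on the 4 stiff arrays and blue on soft A and soft B, with soft C nearest to the gene mean; the MCM helicase rows are pale.

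**Figure D2:**
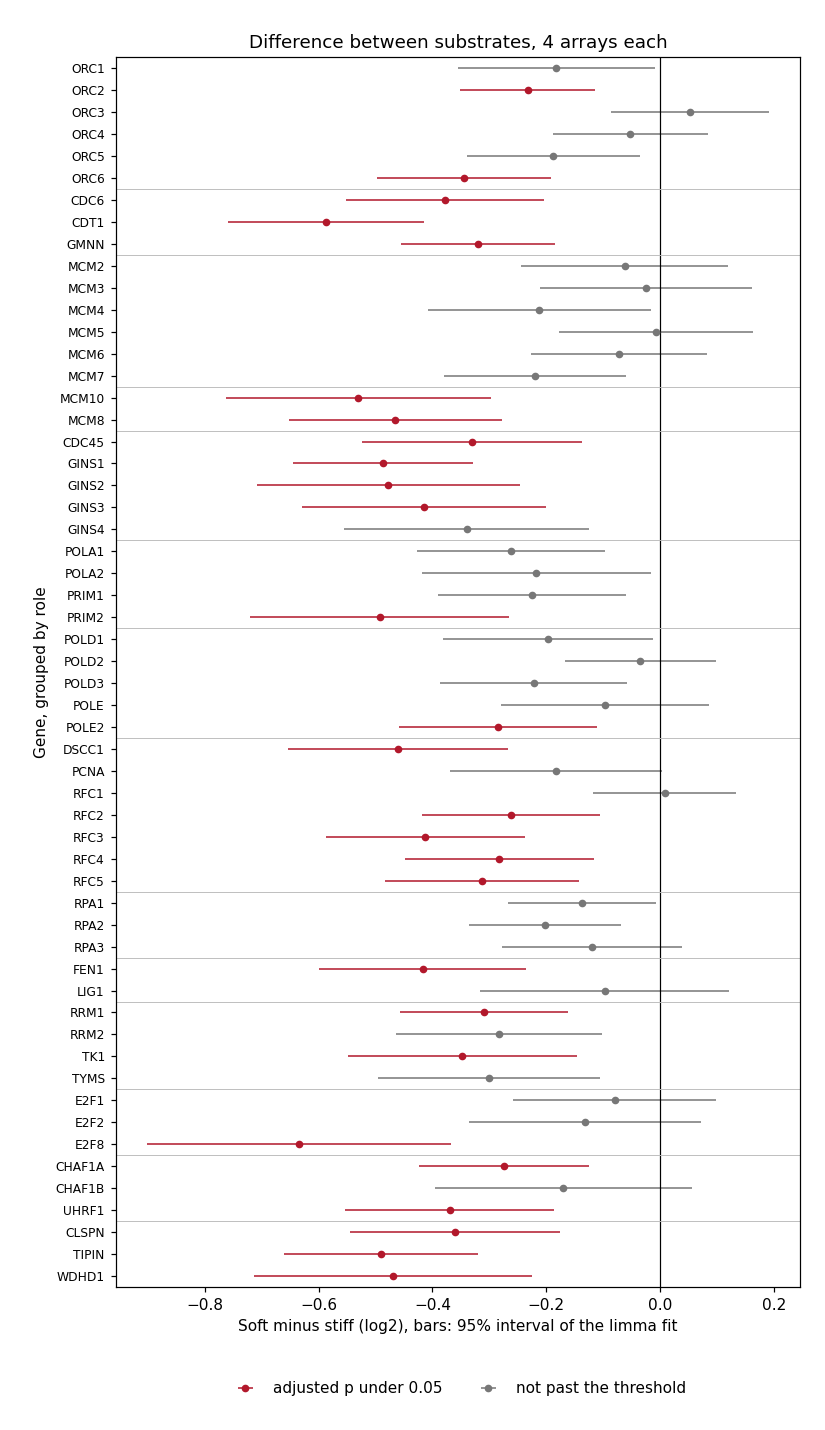
Soft minus stiff difference of each gene on the log2 scale (points) with the 95% interval of the limma fit (bars), 4 arrays per group; red genes passed the threshold. The 27 red genes all lie left of 0, and the 6 MCM helicase genes are all grey.

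The promoters of these genes often held a sequence feature that was not used to choose them. RefSeq promoter windows (GRCh38.p14, 250 bases before to 50 after a transcription start) were found for 48 of the 56 genes. The E2F letters TTTCCCGC, TTTCGCGC, TTTGCCGC or TTTGGCGC, on either strand, were present for 25 of the 48 (52.1%), against 3.99% of the 27305 genes with a window and 5.36% of the 15384 of them measured here. Among the genes themselves, 12 of 25 lower genes held it (48%) and 13 of 23 that did not pass the threshold (56.5%), among them MCM2, MCM3, MCM6 and MCM7, all 4 of the MCM2-7 genes with a window. CCAAT, in either orientation, was present for 30 of the 48 (62.5%, 39.7% of all genes) and TTTGAA, on either strand, the core of the cell cycle element CHR found in many mitotic promoters, for 1 (2.08%, 18.2% of all genes). Overlapping matches, as in MCM6, count once per gene. ORC3, which lay slightly above stiff on soft, also held the E2F letters.

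The genes shown are 3 that fell on soft (CDT1, GINS2, RFC3) and 4 that did not pass the threshold (PCNA, POLA2, E2F1, MCM6). Their stretches before the start that hold a match are set side by side. Each is 5′ to 3′ on the strand of the gene, touches no RefSeq gene, and has the matched E2F letters in capitals. They lie at chr16:88803729-88803788 (CDT1, plus strand), chr16:85688955-85689014 (GINS2, minus strand), chr13:33818089-33818148 (RFC3, plus strand), chr20:5126623-5126682 (PCNA, minus strand), chr11:65261902-65261961 (POLA2, plus strand), chr20:33686386-33686445 (E2F1, minus strand) and chr2:135876514-135876603 (MCM6, minus strand), and each runs up to the base before the start, except that of MCM6, which covers bases 160 to 71 before it.
CDT1: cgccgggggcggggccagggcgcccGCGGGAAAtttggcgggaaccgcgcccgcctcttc
GINS2: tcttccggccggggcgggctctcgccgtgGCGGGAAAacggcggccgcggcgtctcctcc
RFC3: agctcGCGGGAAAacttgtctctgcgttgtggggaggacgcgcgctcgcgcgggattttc
PCNA: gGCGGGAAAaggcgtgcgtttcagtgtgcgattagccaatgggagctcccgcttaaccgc
POLA2: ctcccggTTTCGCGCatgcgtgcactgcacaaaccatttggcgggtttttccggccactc
E2F1: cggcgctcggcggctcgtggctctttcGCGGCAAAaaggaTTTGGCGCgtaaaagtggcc
MCM6: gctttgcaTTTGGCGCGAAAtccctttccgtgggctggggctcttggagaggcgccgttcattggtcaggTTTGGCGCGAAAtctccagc
In CDT1, GINS2 and RFC3 the match began 35, 31 and 55 bases before the start. In PCNA, POLA2 and E2F1, which did not pass the threshold, it began 59, 53 and 33 bases before it, E2F1 holding another match at 20. MCM6 held TTTGGCGC running into GCGCGAAA, beginning 152 and again 90 bases before its start. A match of letters says nothing about binding in these cells, and no binding was measured. The stretches shown do not give the share of genes with a match. Of the 25 lower genes with a window 12 held the letters, and the 60 bases before the start of CDC45, which fell, held none.

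The 2 loading factors and their inhibitor all fell on soft. CDT1, which brings MCM2-7 to origins, measured 9.43, 9.54, 9.46 and 9.47 on stiff A to D and 8.69, 8.86, 8.97 and 9.03 on soft A to D. The groups did not overlap, and CDT1 fell by 0.59 (SE 0.0782, adjusted p = 0.00157). It was read by a probe set marked as holding probes shared with other transcripts; its other probe set differed by -0.21 (adjusted p = 0.129), again with every soft array below every stiff one. CDC6, the ATPase that acts with CDT1, measured 10.29, 10.39, 10.38 and 10.35 on stiff A to D and 9.84, 9.85, 10.07 and 10.14 on soft A to D, and fell by 0.38 (SE 0.079, adjusted p = 0.014). Its second probe set fell by 0.40 (adjusted p = 0.0118). Geminin (GMNN), the inhibitor of CDT1, measured 12.44, 12.53, 12.41 and 12.46 on stiff A to D and 12.04, 12.17, 12.19 and 12.16 on soft A to D. It fell by 0.32 (SE 0.0616, adjusted p = 0.00957), so the loader and its inhibitor were lower on the same arrays. The calls of CDT1, CDC6 and GMNN held without any single array.

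Of the 6 origin recognition subunits, 2 fell. ORC6 measured 10.88, 10.93, 10.84 and 10.85 on stiff A to D and 10.43, 10.58, 10.67 and 10.44 on soft A to D and fell by 0.35 (SE 0.0696, adjusted p = 0.0119), at a probe set marked as holding shared probes. ORC2 measured 8.75, 8.75, 8.77 and 8.72 on stiff A to D and 8.52, 8.51, 8.50 and 8.53 on soft A to D and fell by 0.23 (SE 0.0539, adjusted p = 0.0221), with all soft arrays inside 8.50 to 8.53 and all stiff arrays inside 8.72 to 8.77. That call was lost without stiff A, stiff B or stiff C (adjusted p 0.0531 to 0.062). The second ORC2 probe set differed by -0.11 (adjusted p = 0.285), with every soft array below every stiff one. ORC1, the ATPase subunit whose amount varies through the cell cycle, differed by -0.18 (adjusted p = 0.192), with soft A and B at 7.73 and 7.75 and soft C and D at 8.03 and 7.97, inside the stiff range of 8.01 to 8.11 or just under it. ORC5 differed by -0.19 (adjusted p = 0.126) with groups that did not overlap, ORC4 by -0.05 and ORC3 by 0.05.

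None of the 6 subunits of the MCM2-7 helicase passed the threshold. MCM3 measured 11.74, 11.77, 11.48 and 11.53 on stiff A to D and 11.54, 11.49, 11.70 and 11.69 on soft A to D, and the groups overlapped throughout. Its difference was -0.03 with a 95% interval of -0.21 to 0.16. MCM5 measured 10.10, 10.02, 9.83 and 9.99 on stiff A to D and 9.98, 9.86, 10.11 and 9.96 on soft A to D, a difference of -0.0075 with an interval of -0.18 to 0.16. MCM2 and MCM6 differed by -0.06 and -0.07, with intervals of -0.24 to 0.12 and -0.23 to 0.083. MCM4 and MCM7 lay lowest, at -0.21 (interval -0.41 to -0.017, adjusted p = 0.177) and -0.22 (-0.38 to -0.06, adjusted p = 0.0897). The median over the 6 was -0.07, with no group of arrays separated for any of them. At an unadjusted p under 0.05 in the limma fit 2 of the 6 were lower, MCM4 and MCM7. The share of all genes at that cut was not counted. MCM7 passed the threshold once dim probe sets were left out (adjusted p = 0.0377 by the background level, 0.0382 by the median level) and with a trended robust variance (adjusted p = 0.0313). MCM5 turned above 0 after repeated quantile or cyclic loess scaling of the arrays, and MCM3 after the latter. All these values are of the brightest probe sets. None of the other MCM2-7 probe sets passed the threshold. Those above background differed by -0.30 (adjusted p = 0.0996), -0.15, -0.15 and 0.095 for MCM4. They differed by 0.07 for MCM5, -0.22 for MCM6 (adjusted p = 0.263) and -0.18 for MCM7 (adjusted p = 0.242). The 2 other genes of the MCM name fell. MCM10, an initiation factor that joins the helicase to the polymerases, measured 10.10, 10.13, 10.15 and 10.14 on stiff A to D and 9.29, 9.56, 9.89 and 9.66 on soft A to D, and fell by 0.53 (SE 0.106, adjusted p = 0.0113). All 3 of its probe sets fell, the others by 0.50 and 0.43. MCM8, a helicase that works with MCM9 in recombination, measured 9.82, 9.90, 9.77 and 9.75 on stiff A to D and 9.18, 9.31, 9.58 and 9.31 on soft A to D and fell by 0.47 (SE 0.0851, adjusted p = 0.00766). Both kept their calls without any single array. The contrast of MCM2-7 with the other roles was seen in the values and was not tested.

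Of the 5 factors that switch on the helicase 4 fell. GINS1 measured 10.92, 10.96, 10.79 and 10.86 on stiff A to D and 10.26, 10.37, 10.52 and 10.43 on soft A to D, and fell by 0.49 (SE 0.0719, adjusted p = 0.0026). It was past the threshold in every alternative tried. GINS2 measured 10.77, 10.78, 10.55 and 10.65 on stiff A to D and 9.94, 10.14, 10.46 and 10.30 on soft A to D and fell by 0.48 (SE 0.105, adjusted p = 0.0175), while its brightest probe set without a shared-probe mark differed by 0.07 (adjusted p = 0.673) and the other unmarked one fell by 0.34 (adjusted p = 0.0423). GINS3 measured 8.63, 8.69, 8.38 and 8.41 on stiff A to D and 7.92, 8.07, 8.30 and 8.16 on soft A to D and fell by 0.42 (SE 0.0975, adjusted p = 0.0234). Its second probe set differed by -0.29 (adjusted p = 0.0772), again with groups that did not overlap. GINS4 measured 9.04, 9.06, 8.65 and 8.75 on stiff A to D and 8.42, 8.59, 8.62 and 8.51 on soft A to D, groups that did not overlap, with a difference of -0.34 that just missed the threshold (SE 0.0982, adjusted p = 0.0537). CDC45, which joins GINS on the helicase, measured 9.47, 9.58, 9.27 and 9.32 on stiff A to D and 9.01, 8.96, 9.25 and 9.10 on soft A to D and fell by 0.33 (SE 0.0878, adjusted p = 0.0391). In all 5 genes stiff A and B lay above stiff C and D, a split whose share over all genes was not counted. Every soft array lay below every stiff array in all 5, as it did for 11.2% of all genes. Single arrays mattered for 3 calls: that of CDC45 was lost without stiff A, stiff B, stiff D, soft A, soft B or soft D (adjusted p 0.057 to 0.11), that of GINS3 without stiff A, stiff B, soft A or soft B (0.0599 to 0.071), and that of GINS2 without stiff B or soft B (0.0505 to 0.0565).

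At the priming step 1 of 4 genes fell. PRIM2, the large primase subunit, measured 8.71, 8.80, 9.11 and 8.91 on stiff A to D and 8.14, 8.45, 8.52 and 8.45 on soft A to D and fell by 0.49 (SE 0.103, adjusted p = 0.0142), with stiff C its highest array. PRIM2 has a near-identical partial copy in the genome, and whether its probes tell them apart was not checked. PRIM1, the catalytic primase, differed by -0.22 (adjusted p = 0.0909), POLA1, the catalytic subunit of polymerase alpha, by -0.26 (adjusted p = 0.0526) and its accessory subunit POLA2 by -0.22 (adjusted p = 0.179). Of the 5 subunits of the replicative polymerases delta and epsilon only POLE2, the second subunit of epsilon, fell, by 0.29 (SE 0.0794, adjusted p = 0.0467). It measured 11.52, 11.57, 11.57 and 11.66 on stiff A to D and 11.15, 11.20, 11.48 and 11.35 on soft A to D, and its call was lost without any array other than soft C (adjusted p 0.0701 to 0.123). The catalytic subunit POLD1 differed by -0.20 (adjusted p = 0.183), POLE by -0.10 (adjusted p = 0.547) and POLD2 by -0.04. POLD3 differed by -0.22 (adjusted p = 0.0921); at its dimmer probe set it fell by 0.31 (adjusted p = 0.0374).

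Of the clamp and its loaders 5 of 7 fell. RFC3 measured 10.98, 11.09, 11.01 and 11.00 on stiff A to D and 10.42, 10.58, 10.79 and 10.64 on soft A to D and fell by 0.41 (SE 0.0793, adjusted p = 0.00954). Its other probe sets fell too, by 0.45 and 0.39. DSCC1, part of an alternative loader that works in sister chromatid cohesion, measured 10.23, 10.28, 10.19 and 10.25 on stiff A to D and 9.56, 9.71, 10.00 and 9.84 on soft A to D, and fell by 0.46 (SE 0.088, adjusted p = 0.00928); a dimmer probe set differed by 0.075 (adjusted p = 0.614). RFC2, RFC4 and RFC5 fell by 0.26 (adjusted p = 0.0424), 0.28 (adjusted p = 0.0397) and 0.31 (adjusted p = 0.0296). These 3 calls were lost without most single arrays: that of RFC2 without any but soft C (adjusted p 0.0646 to 0.122), that of RFC4 without stiff B, C or D or soft A, B or D (0.0679 to 0.104) and that of RFC5 without stiff A, B or D or soft A, B or D (0.0667 to 0.0855). RFC1, the large loader subunit, measured 10.02, 10.00, 10.02 and 10.06 on stiff A to D and 10.03, 9.98, 10.10 and 10.02 on soft A to D. Its difference was 0.0075 with a 95% interval of -0.12 to 0.13. A second RFC1 probe set, marked as holding shared probes, differed by -0.07 (adjusted p = 0.484), with every soft array below every stiff one. PCNA, the sliding clamp, measured 12.86, 12.91, 12.81 and 12.83 on stiff A to D and 12.41, 12.74, 12.78 and 12.75 on soft A to D. All soft arrays were below all stiff ones, but soft A stood well under the other soft arrays, and the difference of -0.18 did not pass the threshold (interval -0.37 to 0.0035, adjusted p = 0.226). Without soft A it was -0.096 (adjusted p = 0.414).

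The RPA subunits, which coat single-stranded DNA, did not pass the threshold: RPA1 differed by -0.14 (adjusted p = 0.189), RPA2 by -0.20 (adjusted p = 0.0632) and RPA3 by -0.12 (adjusted p = 0.362). In the limma fit 2 of the 3, RPA1 and RPA2, were lower at an unadjusted p under 0.05, with no share of all genes counted at that cut. The nuclease that trims Okazaki fragments, FEN1, measured 12.67, 12.69, 12.44 and 12.52 on stiff A to D and 12.00, 12.15, 12.29 and 12.21 on soft A to D. It fell by 0.42 (SE 0.0824, adjusted p = 0.0107), and its second probe set fell by 0.40. DNA ligase 1 (LIG1), which seals the fragments, measured 9.56, 9.51, 9.14 and 9.31 on stiff A to D and 9.34, 9.10, 9.32 and 9.37 on soft A to D, and differed by -0.10 (interval -0.32 to 0.12, adjusted p = 0.627). Its stiff C value was below 3 of the soft arrays. FEN1 passed the threshold and LIG1 did not, but the interval of FEN1 (-0.60 to -0.24) overlapped that of LIG1. Whether the differences of FEN1 and LIG1 were unlike was not tested.

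Of the 4 genes of deoxynucleotide supply 2 fell. RRM1, the large subunit of ribonucleotide reductase, measured 12.78, 12.81, 12.73 and 12.76 on stiff A to D and 12.33, 12.43, 12.58 and 12.50 on soft A to D and fell by 0.31 (SE 0.067, adjusted p = 0.0161); without stiff B its adjusted p was 0.0527. The other RRM1 probe set differed by -0.305 (adjusted p = 0.0572), with overlapping groups. The small subunit RRM2 measured 12.92, 12.90, 12.90 and 12.89 on stiff A to D and 12.42, 12.54, 12.79 and 12.73 on soft A to D. Its groups did not overlap, and its difference of -0.28 just missed the threshold (SE 0.0823, adjusted p = 0.0556), while its other probe set fell by 0.37 (adjusted p = 0.00799). Cytosolic thymidine kinase (TK1) measured 10.39, 10.37, 10.15 and 10.13 on stiff A to D and 9.75, 9.83, 10.06 and 10.01 on soft A to D and fell by 0.35 (SE 0.0912, adjusted p = 0.037), a call lost without stiff A, stiff B, soft A, soft B or soft D (adjusted p 0.0529 to 0.106). The other TK1 probe set differed by -0.28 (adjusted p = 0.0876), with groups that did not overlap. Thymidylate synthase (TYMS) differed by -0.30 (SE 0.0887, adjusted p = 0.0588), soft C touching stiff C at 13.13.

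E2F8, an atypical E2F that represses E2F targets, had the largest difference of the 56. It measured 10.14, 10.22, 9.94 and 10.07 on stiff A to D and 9.09, 9.51, 9.75 and 9.48 on soft A to D. Soft A was lowest by a wide step, yet all soft arrays were under all stiff arrays, and E2F8 fell by 0.64 (SE 0.122, adjusted p = 0.0093), 1.55-fold higher on stiff. Without soft A the difference was -0.51 (adjusted p = 0.0119). The activators E2F1 and E2F2 overlapped between groups, E2F1 with a difference of -0.08 (adjusted p = 0.625), E2F2 of -0.13 (adjusted p = 0.449). E2F1 measured 8.85, 8.87, 8.63 and 8.73 on stiff A to D and 8.66, 8.64, 8.59 and 8.87 on soft A to D. At its other probe set every soft array (highest 7.07) lay below every stiff array (lowest 7.08), a difference of -0.20 (adjusted p = 0.104).

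Of the genes that restore chromatin behind the fork, UHRF1, which guides maintenance methylation, measured 11.51, 11.49, 11.24 and 11.30 on stiff A to D and 10.88, 10.97, 11.13 and 11.08 on soft A to D and fell by 0.37 (SE 0.0835, adjusted p = 0.0195). The call was lost without stiff A, stiff B, soft A or soft B (adjusted p 0.0522 to 0.0633). CHAF1A, the large subunit of the histone loader CAF-1, fell by 0.28 (SE 0.0679, adjusted p = 0.0289) at a probe set marked as holding shared probes, a call lost without any single array except soft C and soft D (0.0535 to 0.0742). Another of its probe sets was 0.23 higher on soft without passing the threshold (adjusted p = 0.18). Its partner CHAF1B differed by -0.17 (adjusted p = 0.369). All 3 genes of fork protection and checkpoint signalling fell. TIPIN, the partner of TIMELESS at the fork, measured 10.24, 10.30, 10.37 and 10.34 on stiff A to D and 9.69, 9.75, 10.02 and 9.83 on soft A to D, and fell by 0.49 (SE 0.0776, adjusted p = 0.00378). That call held in every alternative tried. WDHD1, which ties the helicase to polymerase alpha, measured 9.09, 9.21, 9.32 and 9.28 on stiff A to D and 8.41, 8.79, 8.99 and 8.83 on soft A to D, and fell by 0.47 (SE 0.111, adjusted p = 0.0238). Its other probe sets fell by 0.42 and 0.35. Claspin (CLSPN), which relays the checkpoint signal to CHEK1, fell by 0.36 (SE 0.0839, adjusted p = 0.0226). Its other probe set above background differed by -0.115 (adjusted p = 0.48), with overlapping groups. The calls of WDHD1 and CLSPN were lost without stiff B, stiff C, stiff D or soft B (adjusted p 0.0516 to 0.0646) and without stiff A, stiff B or soft B (0.057 to 0.0646), respectively.

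**Figure D3:**
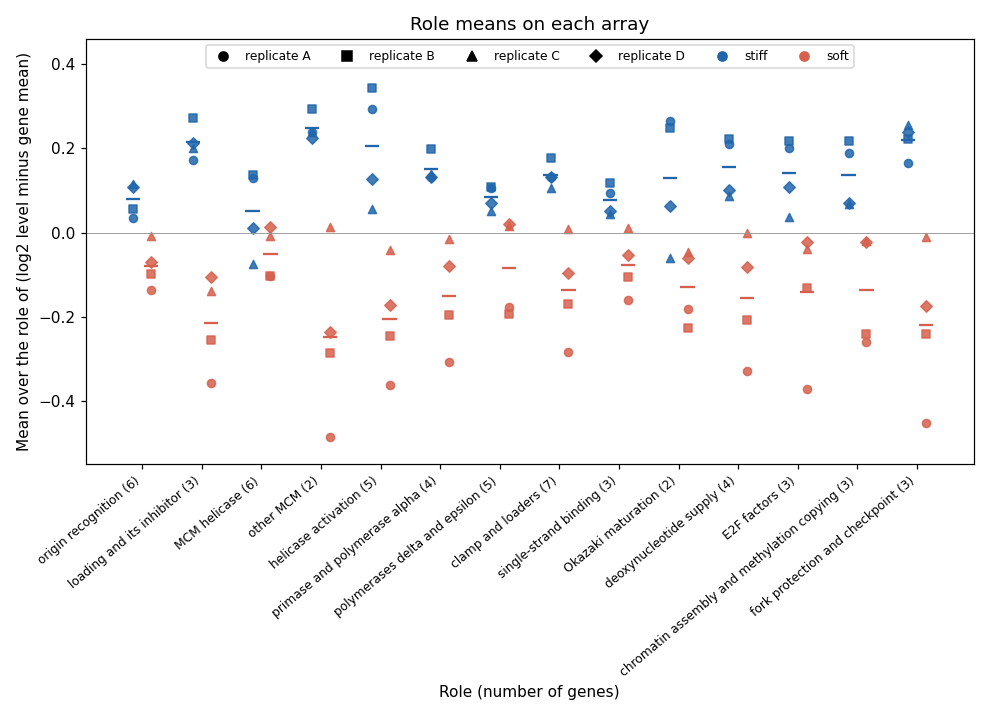
Mean over the genes of each role of the log2 level minus the gene mean, for each array (marker shape: replicate letter; blue: stiff, red: soft), with the group mean as a bar. Soft A is lowest in most roles, and the groups overlap in the MCM helicase and Okazaki maturation roles.

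The 2 groups were not uniform within themselves. Averaged over the 56 genes, each centred on its own mean, the stiff arrays stood at 0.16 (A), 0.19 (B), 0.082 (C) and 0.11 (D) and the soft arrays at -0.26 (A), -0.18 (B), -0.016 (C) and -0.074 (D), so that the groups did not overlap. Soft A was the lowest soft array for 42 of the 56 genes. The share of all genes with soft A lowest was not counted. On the first principal component of all probe sets (40.4% of the variance) soft A also lay farthest from the stiff arrays, at 35.3. Soft C lay nearest to them there, at 9.41. Without soft A 18 genes passed the threshold (3.58% of all genes were lower) and the median difference was -0.23. Leaving out soft C, the soft array nearest to stiff, gave 33 (6.06% of all genes). Over the 27 genes that fell, the means were 0.16 to 0.25 on stiff and -0.37 to -0.041 on soft. Over the other 29 they were 0.0093 to 0.13 and -0.17 to 0.0069. The 27 and the 29 were split by their calls on these same arrays, so a wider gap in the 27 follows from the split.

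Both stiff A and stiff B lay above both stiff C and stiff D for 32 of the genes, and below both for 9. The share of all genes split in these ways was not counted. Both fits against a pair of stiff arrays use the same 4 soft arrays. Against stiff A and B alone the median difference was -0.30 and 14 genes were lower (2.66% of all genes), against stiff C and D alone -0.22 and 4 were lower (1.96% of all genes). Those 4 were CDT1, GINS1, PRIM2 and TIPIN. The step was widest for GINS4 (-0.52 against A and B, -0.17 against C and D) and LIG1 (-0.25 and 0.058), and ran the other way for PRIM2 (-0.37 and -0.62), ORC5 (-0.09 and -0.28) and WDHD1 (-0.40 and -0.55). CDT1 hardly differed, at -0.60 and -0.58, nor did ORC2, at -0.24 and -0.23. The median of the MCM2-7 genes was -0.15 against stiff A and B and 0.0025 against stiff C and D. Stiff arrays C and D were set apart from A and B by the second principal component of all probe sets, which held 16.4% of the variance.

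**Figure D4:**
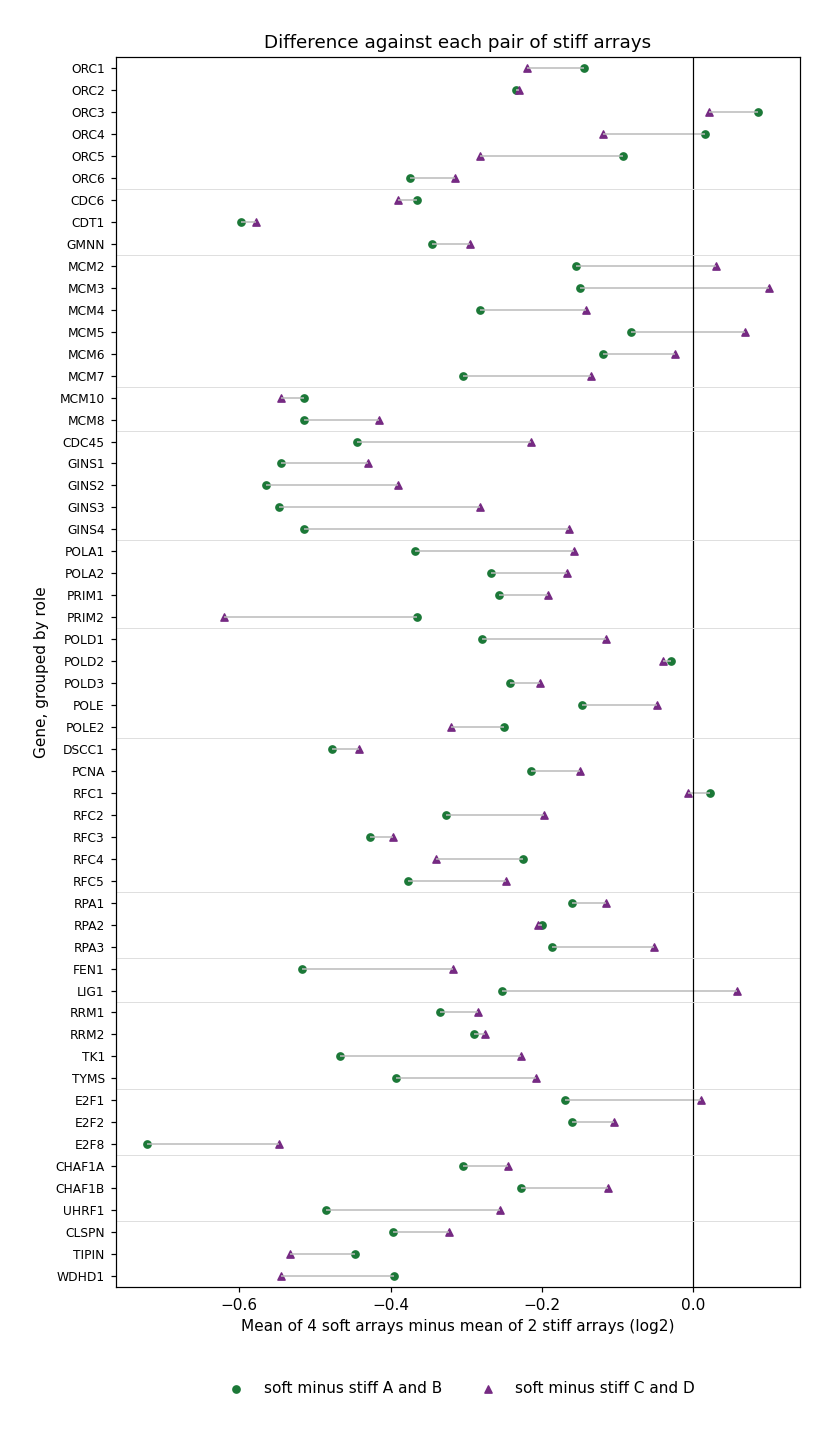
Difference of the 4 soft arrays from stiff A and B alone (green circles) and from stiff C and D alone (purple triangles) for each gene, on the log2 scale. GINS4, LIG1 and GINS3 have the longest lines with the circle farther left, and PRIM2, ORC5 and WDHD1 have the triangle farther left.

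A further 52 probe sets name 32 of the genes. Of the 39 above background 34 had a difference below 0 and 13 passed the threshold, all of them lower. None of the 52 passed it upward. At the brightest probe set of each gene, 47.7% of all genes were below 0 and 9.17% of those above background were lower. Shares over all further probe sets were not counted, and these values come from the same arrays and genes. Among the 16 genes that fell and had another probe set above background, 8 fell at a second one as well. RRM2 and POLD3 fell only at a probe set other than their brightest.

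The wider pathway showed the same direction with some exceptions. Of 79 other genes of replication and nucleotide synthesis 76 were measured. Of these 29 were lower (38.2%, against 5.93% of all genes), 2 higher and 45 not past the threshold, with a median difference of -0.20. The lower count was 14 without stiff A (3.84% of all genes), 9 without stiff B (2.77%), 16 without stiff C (3.71%), 15 without stiff D (3.59%), 17 without soft A (3.58%), 16 without soft B (3.69%) and 15 without soft D (3.55%), so calls were fewer over all genes in the same fits. The largest decreases were those of the nuclease EXO1 (0.56, SE 0.104, adjusted p = 0.00831), the purine synthesis enzyme PFAS (0.51, SE 0.0798, adjusted p = 0.00339), the nuclease-helicase DNA2 (0.47, SE 0.109, adjusted p = 0.0217), the origin firing factor MTBP (0.45, SE 0.0867, adjusted p = 0.00991) and FBXO5, an inhibitor of the anaphase-promoting complex (0.45, SE 0.0852, adjusted p = 0.00909). POLD4, the smallest subunit of polymerase delta, rose by 0.70 (SE 0.0908, adjusted p = 0.00131), from 8.36, 8.48, 8.56 and 8.73 on stiff A to D to 9.42, 9.22, 9.13 and 9.18 on soft A to D. The other delta subunits, described above, lay below 0 without passing the threshold. TK2, the mitochondrial thymidine kinase, rose by 0.31 (SE 0.0674, adjusted p = 0.0171), where TK1 fell.

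Genes that mark cycling or arrested cells were read beside them. MKI67, a marker of cycling cells, differed by -0.30 (SE 0.0989, adjusted p = 0.0824) and TOP2A by -0.21 (adjusted p = 0.127). CDKN1A, the p21 inhibitor of cyclin-dependent kinases, rose by 0.56 (SE 0.0766, adjusted p = 0.00184), with 9.31 to 9.51 on stiff and 9.87 to 10.13 on soft. CDKN1B differed by -0.025 (adjusted p = 0.891), and CCND1 by -0.04 (adjusted p = 0.758). Of the 18 such genes 17 were measured, and 11 did not pass the threshold. Lower were 5 (29.4%, against 5.93% of all genes), and 1 was higher (4.39% of all genes). The part of these markers in the replication results was not tested.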

How the data were processed

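The deposited values are log2 RMA expression values, one per probe set and array, per the submitters' processing notes and the values themselves; software version, probe definition and scan batches are not given in the sources used here. They range over 2.14 to 14.8, and the precision is limited by the number of arrays, 4 per group. Of 54675 probe sets 62 controls were left out; 41091 of the rest name 1 gene in the platform annotation, 1801 several and 11721 none. limma 3.58.1 in R 4.3.3 was fitted to all 54613 probe sets (lmFit and eBayes, no trend), with Benjamini-Hochberg adjustment over all of them and a threshold of 0.05. The fit was first tested on simulated data with known changes. With 4 arrays a side, exact permutation could not go below 0.0286 and was not used. All member genes are named; of the other pathway genes up to 5 per direction with the largest called difference; of the proliferation genes MKI67, TOP2A, CDKN1A, CDKN1B and CCND1. The members and lists were chosen with earlier results of these data known, so no list was tested. Promoter windows are RefSeq's. Alternatives covered scaling, dim probe sets, variance model, weights, replicate block, choice of probe set, threshold and each array left out; the fits against a pair of stiff arrays were added after seeing the data.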

Additional observations from a re-analysis of the deposited data

Results flagged for a closer look

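In 2 of the 112 groups of 4 arrays (56 genes, each on soft and on stiff) a single array stood apart from the other 3, by a gap of more than 0.829 of the group's whole range. Chance gives this in about 1 of 20 groups. PCNA measured 12.41 on soft A, where the other soft arrays lay between 12.74 and 12.78. MCM6 measured 11.5 on stiff C, where the other stiff arrays lay between 11.66 and 11.69.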

How the results depend on the processing

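The median difference of the 56 genes kept its sign and lay between -0.30 and -0.22 in every alternative, and no gene was called higher in any. The 27 lower calls became 14 against stiff A and B alone, 4 against stiff C and D alone and 8 at an adjusted p under 0.01 (1.44% of all genes). They became 35 with either filter on dim probe sets (14.6% and 14.4% of the genes kept), 36 with a trended robust variance (8.89%) and 35 at an adjusted p under 0.10 (8.77%); the 9 further genes that passed in some setting were MCM7, GINS4, POLA1, PRIM1, POLD3, RPA1, RPA2, RRM2 and TYMS. Without single arrays the calls ranged from 13 to 33, and 13 of the 27 genes were called in each of those fits. Same-letter correlations of the deviations from the group means were 0.12, -0.12, 0.052 and -0.045, and those of unlike letters lay between -0.17 and 0.21. With 4 arrays per group, whether the letters mark shared experiments cannot be told from these. With the letter as a block 18 genes were lower (4.13% of all genes). Of the 76 other pathway genes 29 were lower, and 16 with the replicate block, 9 against stiff A and B, 3 against stiff C and D, 7 at an adjusted p under 0.01 and 9 to 29 without single arrays. The 2 higher ones became 1 in both stiff pairs and at 0.01, and 1 to 2 without single arrays. Among single genes, 12 changed sign in some setting. Without single arrays MCM2 ranged from -0.10 to 0.00083, MCM3 from -0.075 to 0.022, MCM5 from -0.059 to 0.032, POLD2 from -0.055 to 0.0017 and RFC1 from -0.015 to 0.025. Against stiff C and D, MCM2 was at 0.03, MCM3 at 0.10, MCM5 at 0.068, LIG1 at 0.058, E2F1 at 0.01 and RFC1 at -0.0075; against stiff A and B, ORC4 was at 0.015. Cyclic loess put MCM3 at 0.0051 and MCM5 at 0.0198, repeated quantile normalization MCM5 at 0.0203, and subtracted array medians RFC1 at -0.013. The mean of all probe sets gave MCM5 0.03 and RFC1 -0.077. Probe sets without a shared-probe mark gave MCM5 and GINS2 0.068, POLA2 0.01, RFC1 -0.17, CHAF1A 0.035 and DSCC1 0.075. Another, dimmer probe set was read for these genes there. It lay below background for CHAF1A, POLA2 and RFC1, and above it for MCM5, GINS2 and DSCC1. The cause was not tested for any. The number of arrays, 4 per group, limits the precision of every value.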

Other observations

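Among all genes measured with a promoter window, the E2F letters were held by 93 of 933 lower on soft (9.97%), by 28 of 704 higher (3.98%) and by 703 of 13747 not called (5.11%). The share in the lower genes includes the 12 replication genes that held them.

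Of the E2F family outside the 56 genes, E2F3 and E2F5 fell on soft, by 0.26 (SE 0.0646, adjusted p = 0.0307) and 0.37 (SE 0.0861, adjusted p = 0.0231), while E2F4, E2F6 and E2F7 did not pass the threshold. Of the cyclins, CCNE2 fell by 0.50 (SE 0.113, adjusted p = 0.0185), CCNA2 by 0.41 (SE 0.09, adjusted p = 0.0171) and CCNB1 by 0.34 (SE 0.0821, adjusted p = 0.0278). These genes were named after their values were seen, as all those of their list that fell. Soft A was the lowest soft array for each of them, a share that was not counted over all genes.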
